A study of Mus musculus with 18 samples.

Results

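The genes described here handle thyroid hormone inside cells. They are the 3 iodothyronine deiodinases (Dio1, Dio2 and Dio3), the 2 nuclear receptors (Thra and Thrb), 3 amino acid carriers that also move the hormone across the cell membrane (Slc16a10, Slc7a5 and Slc7a8) and the cytosolic hormone-binding protein Crym. They were chosen by name from their known roles, as 9 of the 23626 named genes in the table, where they are written DIO1, DIO2, DIO3, THRA, THRB, SLC16A10, SLC7A5, SLC7A8 and CRYM. All 9 were found, and each was followed in all 18 libraries.

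RNA was sequenced from mouse thyroid cells sorted for a yellow fluorescent protein (YFP) and labelled as thyrocytes, the hormone-making cells of the thyroid. All groups were untreated and taken at 20 weeks. 4 libraries came from tumours with BrafV600E alone (Braf tumours), 7 from tumours with BrafV600E and Tert-123C>T, a change in the promoter of the telomerase gene Tert (Tert-123 tumours), and 4 from tumours with BrafV600E and K5-Tert, in which a keratin 5 promoter drives a Tert transgene (here called K5-Tert tumours). The remaining 3 libraries carried no Braf mutation and were 1 pool each of samples with K5-Tert alone, samples with Tert-123C>T alone and wild-type (WT) samples. The labels give the pools the same source as the tumours, thyroid tumor, and the number of samples in a pool is not stated. The driver of the YFP label and of the Braf mutation is not given in the sources used here. Whether the libraries come from separate animals is not stated, and p-values therefore reflect only the spread between these samples, which may be technical.

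The thyroid releases mostly thyroxine, a prohormone. Dio1 and Dio2 remove an iodine from its outer ring to make the active hormone triiodothyronine, while Dio3, and in part Dio1, removes an inner-ring iodine and inactivates it. All of the deiodinases carry the amino acid selenocysteine at the active site. The active hormone binds Thra or Thrb on DNA, usually beside a retinoid X receptor, and Dio1 is a classic target of this step in liver as well as an abundant thyrocyte enzyme.

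Levels are TPM, a share of each library's transcripts scaled for transcript length, so levels of different genes can be set beside each other. The deposited table holds no counts, so depth is unknown. In each library 43.7% to 68.8% of the TPM belonged to Rpph1, the RNA of ribonuclease P, and 10958 to 15045 genes reached 1 TPM. Tert, the gene under the alleles, was at 3.78 to 5.12 TPM in Braf tumours, 2.65 to 6.23 TPM in Tert-123 tumours and 11.2 to 73.9 TPM in K5-Tert tumours. The defining thyrocyte factors Pax8 (16.8 to 151 TPM in the tumours) and Nkx2-1 (52.4 to 271 TPM) were present in all 18 libraries. The iodide carrier Slc5a5 was at 0.300 to 3.54 TPM in the tumours and 49.3 to 65.3 TPM in the pools. The summed level of 9 thyrocyte markers was 294 to 1092 TPM in the tumours and 26192 to 32226 TPM in the pools. Nearly all of the sum in the pools was 1 gene, Tg (thyroglobulin), at 25676 to 31240 TPM there and 81.9 to 511 TPM in the tumours. The pool with Tert-123C>T stood apart: its T cell marker sum was 172 TPM against at most 32.4 TPM elsewhere, and its endothelial sum was 751 TPM. 3 of the 4 K5-Tert tumours (numbers 2, 3 and 4) held 1050 to 1908 TPM of the nuclear RNA Malat1, against 5072 TPM or more in every Braf and Tert-123 tumour.

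The comparison of tumours with the pools asks how hormone handling differs between thyrocytes with and without the Braf mutation. Every library without the mutation was a pool and every library with it a tumour. The mutation therefore cannot be told apart from pooling or from tumour state. Below, lower or higher with the mutation means in the tumours against the pools. Dio1 and the receptor genes Thra and Thrb were lower in the tumours and Crym was higher. In a fit of all genes with the Tert allele beside the mutation, 2042 of 13532 genes (15.1%) were higher in tumours and 1522 (11.2%) lower at an adjusted p under 0.05 (limma). 6 of the 9 genes had a mean of at least 1 TPM over the 18 libraries and entered that fit. Among these, 1 was higher and 3 were lower. Thrb passed this limit only through the pools and Crym only through the tumours, so the shares of these 6 say nothing about the group. Over all 9 genes in the fit without a filter, 1 was higher and 4 were lower, where 7.88% of 22693 genes were higher and 6.27% lower (14.1% in either direction, against 26.3% of the 13532). The fourth lower gene was Slc16a10. In bulk libraries, fewer cells of a type and less RNA per cell cannot be told apart.

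**Figure D1:**
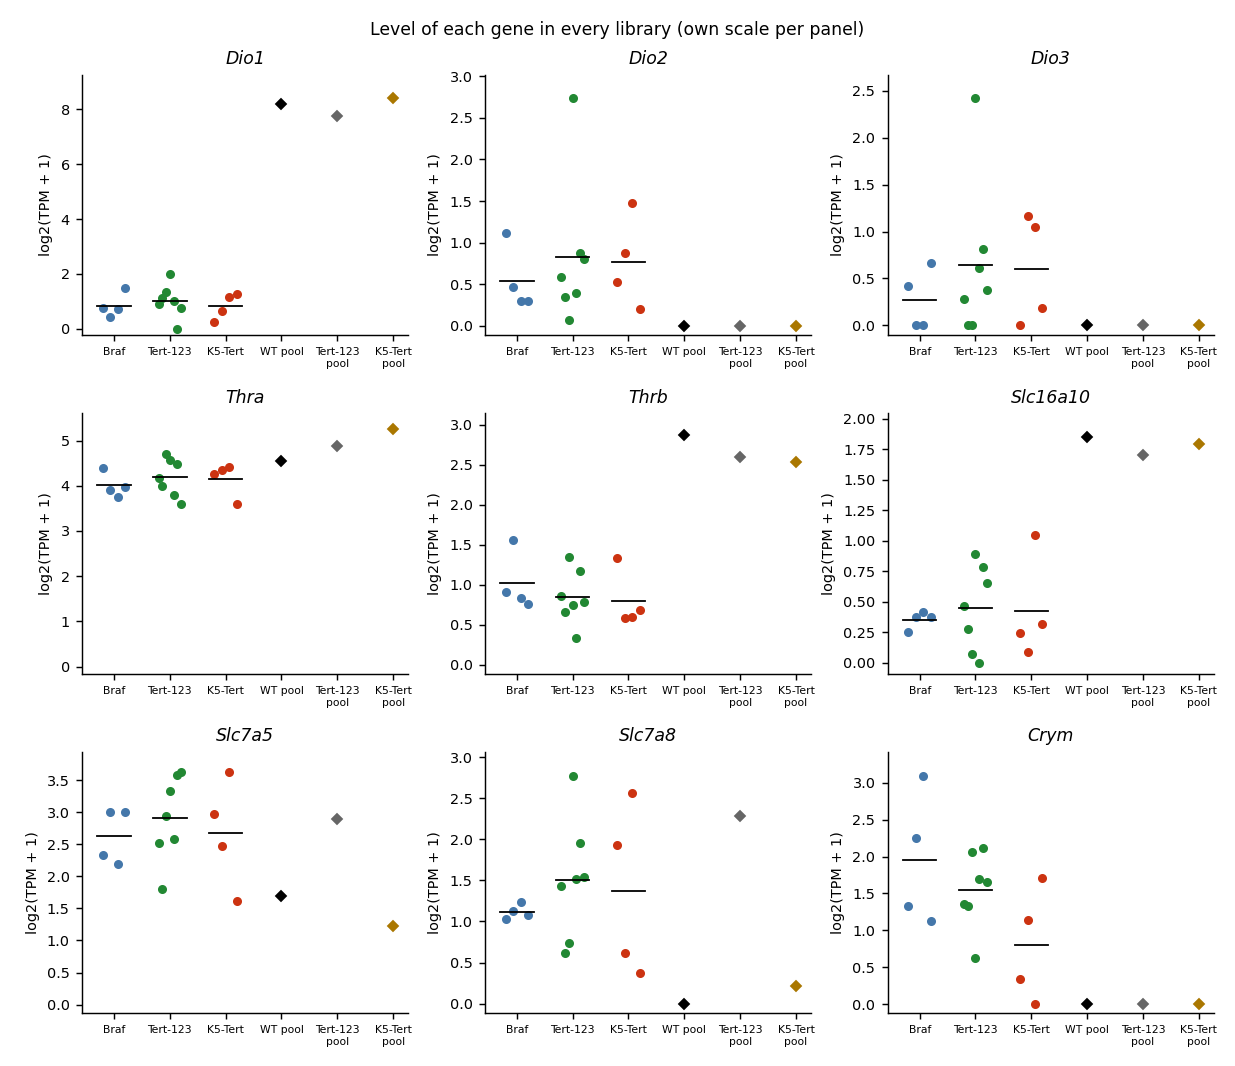
Level of each of the 9 genes in each of the 18 libraries as log2(TPM + 1), with a separate vertical scale for each gene. Dots are tumours, with a black line at the group mean, and diamonds are the single pools. Dio1, Thrb and Slc16a10 sit higher in all 3 pools than in any tumour, while Dio2, Dio3 and Crym are listed at 0 in all 3 pools.

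Dio1 showed the widest gap of the 9 genes. The Braf tumours held 0.670, 0.330, 0.659 and 1.80 TPM. The Tert-123 tumours ranged from 0 to 3.03 TPM around a median of 0.986 TPM, and the K5-Tert tumours held 0.183, 0.562, 1.21 and 1.43 TPM. The pools held 294 TPM in the WT, 217 TPM with Tert-123C>T and 340.1 TPM with K5-Tert. Every pool was therefore far above every tumour, and the 3 tumour groups covered the same low range. Without a filter 3.72% of 22693 genes had all tumours below all pools. The mean of the pools was 281 times the mean of the tumours (283 ± 62.4 TPM, SD, n = 3, against 1.01 ± 0.755 TPM, n = 15). The fitted difference was -7.22 on the log2(TPM + 1) scale (standard error 0.337, 95% interval -7.92 to -6.52, limma adjusted p = 4.39e-12). Only 2 of the 13532 genes had a lower fitted value. An exact two-sided permutation test of the 15 tumours against the 3 pools gave p = 0.002451, the smallest that 816 arrangements allow. The permutation tests did not model the Tert allele, which differs between the 3 pools.

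The 2 other deiodinases were low throughout. Dio2 was at 1.17, 0.379, 0.227 and 0.226 TPM in the Braf tumours. In the Tert-123 tumours it ranged from 0.0510 to 5.68 TPM with a median of 0.504 TPM, and the K5-Tert tumours held 0.443, 0.842, 1.77 and 0.146 TPM. All 15 tumours had some Dio2, while all 3 pools were listed at 0. All tumours lay above all pools in 3.54% of genes without a filter. Without a filter the fitted difference, whose size depends on the pseudocount, was 0.72 (limma adjusted p = 0.242), so it did not pass in the fit across genes. The exact permutation test gave p = 0.002451, the smallest possible. A listing at 0 was common in these pools, each of which listed 9503 to 10869 genes at 0, and 31.4% of 22693 genes were at 0 in all 3 pools and above 0 in a tumour.

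Dio3, the inactivating enzyme, was listed at 0 in the 3 pools and in 5 of the 15 tumours. The Braf tumours held 0.340, 0, 0 and 0.581 TPM and the K5-Tert tumours 0, 1.25, 1.07 and 0.141 TPM. The Tert-123 tumours ranged from 0 to 4.37 TPM with a median of 0.299 TPM. The tumours thus overlapped the pools at 0, and the difference did not pass without a filter (0.51, limma adjusted p = 0.387, exact permutation p = 0.1373). Summed over the 3 enzymes, deiodinase RNA was 0.626 to 13.1 TPM in the tumours and 217 to 340.1 TPM in the pools. Dio1 made up 100% of this sum in every pool and 0% to 96.8% in the tumours, with a median of 46.5%. The shares in the tumours are ratios of very low values, since their sums had a median of 1.71 TPM.

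Dio1 was high in the pools. Dio2 was listed at 0 there, was low in the tumours and did not pass in the fit across genes. The promoters of these 2 activating enzymes are printed. Each is the 250 bases before the start in RefSeq (build GRCm38.p6), 5′ to 3′ on the gene's strand, and the capitals mark motif matches. Dio1 lies at chr4:107307169-107307418 and Dio2 at chr12:90739039-90739288, both on the minus strand.
Dio1: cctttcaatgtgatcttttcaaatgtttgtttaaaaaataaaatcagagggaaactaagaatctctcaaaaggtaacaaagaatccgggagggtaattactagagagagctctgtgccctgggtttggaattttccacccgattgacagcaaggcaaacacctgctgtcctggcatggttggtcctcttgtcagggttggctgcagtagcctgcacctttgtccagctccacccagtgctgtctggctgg
Dio2: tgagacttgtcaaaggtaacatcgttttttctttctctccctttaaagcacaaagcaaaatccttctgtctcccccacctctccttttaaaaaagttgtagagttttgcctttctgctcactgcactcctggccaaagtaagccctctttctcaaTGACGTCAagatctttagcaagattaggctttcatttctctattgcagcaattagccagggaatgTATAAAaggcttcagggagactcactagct
Both strands were searched for the receptor half-site AGGTCA (in 14.0% of 32851 promoters of this length), the Nkx2-1 core CAAGTG (11.6%), the cyclic AMP response element TGACGTCA, which reads the same on both strands (1.55%), and the TATA box TATAAA (12.4%). The Dio2 window held TGACGTCA 95 to 88 bases before the start and TATAAA 30 to 25 bases before it. None of the 4 motifs was in the Dio1 window. The Dio3 window held TATAAA 31 to 26 bases before its start. 6 of the 9 genes, with 7 starts, were in the promoter table. Thra, Slc7a5 and Crym had no entry.

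Thra was the most abundant of the 9 genes in the tumours. It encodes the receptor that prevails in heart, brain and skeletal muscle, and by splicing a form that does not bind the hormone, which these gene-level values do not separate. The Braf tumours held 19.9, 14.0, 12.6 and 14.8 TPM, the K5-Tert tumours 18.03, 19.5, 20.4 and 11.01 TPM, and the Tert-123 tumours 11.1 to 25.1 TPM with a median of 17.0 TPM. The pools held 22.57 TPM in the WT, 28.3 TPM with Tert-123C>T and 37.1 TPM with K5-Tert. 13 of the 15 tumours lay below all 3 pools, and 2 Tert-123 tumours (25.1 and 22.65 TPM) reached the WT pool. The fitted difference was -0.77 on the log2(TPM + 1) scale (standard error 0.249, limma adjusted p = 0.0254, exact permutation p = 0.007353). It did not pass without the K5-Tert pool (-0.62, limma adjusted p = 0.115) or without the Tert-123C>T pool (-0.82, limma adjusted p = 0.0650).

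Thra shares its end with Nr1d1, a clock repressor gene on the opposite strand. Whether the counting used strand is not stated, and reads of the 2 genes may not be fully separated. Nr1d1 was at 13.8 to 36.4 TPM in the tumours and at 84.5, 106 and 129 TPM in the K5-Tert, Tert-123C>T and WT pools (fitted difference -2.24, limma adjusted p = 3.76e-07). Among the pools the order of Nr1d1 was the reverse of that of Thra. Among the tumours, Tert-123 tumours 3 and 4 held the highest Thra (25.1 and 22.65 TPM) and also the highest Nr1d1 (27.0 and 36.4 TPM). K5-Tert tumour 4, with the lowest Thra (11.01 TPM), held 22.5 TPM of Nr1d1. The part of shared reads in these values was not tested.

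Thrb, the receptor that prevails in liver and pituitary and mediates hormone feedback, was lower in the tumours. The Braf tumours held 0.884, 1.96, 0.778 and 0.700 TPM and the K5-Tert tumours 1.53, 0.506, 0.520 and 0.607 TPM. The Tert-123 tumours ranged from 0.268 to 1.54 TPM with a median of 0.724 TPM. The pools held 6.30 TPM in the WT, 5.08 TPM with Tert-123C>T and 4.81 TPM with K5-Tert. Every pool was above every tumour, as in 3.72% of 22693 genes without a filter. Thrb entered the main fit only through its level in the pools. The pools' mean was 6.06 times the tumours' mean, and the fitted difference was -1.78 (standard error 0.280, 95% interval -2.36 to -1.20, limma adjusted p = 7.04e-05, exact permutation p = 0.002451). It passed in each of 29 other fits, from -2.20 to -0.82. As a share of the TPM of both receptors, Thrb was 2.02% to 12.3% in the tumours and 11.5%, 15.2% and 21.8% in the K5-Tert, Tert-123C>T and WT pools. The only tumour to overlap the pools in this share was Braf tumour 2. The promoter of the first Thrb start, printed for its match to the receptors' own half-site, lies at chr14:17660710-17660959 on the plus strand of GRCm38.p6 (RefSeq), with AGGTCA in capitals 184 to 179 bases before the start.
Thrb: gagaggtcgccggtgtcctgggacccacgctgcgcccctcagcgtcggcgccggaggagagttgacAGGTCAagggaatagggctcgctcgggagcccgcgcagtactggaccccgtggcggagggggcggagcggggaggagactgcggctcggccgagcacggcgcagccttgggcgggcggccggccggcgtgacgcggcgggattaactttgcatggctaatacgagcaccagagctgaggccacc
The window of its other start held TATAAA 167 to 162 bases before that start. A match describes the letters of the window and does not show binding.

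Of the 3 carriers, Slc16a10 was lower with the mutation, and Slc7a5 and Slc7a8 did not pass the test. Slc16a10 carries aromatic amino acids and thyroid hormone and can export the hormone. It was at 0.194, 0.296, 0.333 and 0.295 TPM in the Braf tumours and 0.186, 0.0633, 1.06 and 0.250 TPM in the K5-Tert tumours. The Tert-123 tumours ranged from 0 to 0.854 TPM with a median of 0.383 TPM. The pools held 2.61 TPM in the WT, 2.25 TPM with Tert-123C>T and 2.46 TPM with K5-Tert. All 3 lay above every tumour, as in 3.72% of 22693 genes without a filter. The mean of Slc16a10 over the 18 libraries was 0.711 TPM, below the limit for the main fit. Without a filter it was lower in the tumours (fitted difference -1.37, standard error 0.210, limma adjusted p = 0.000155, exact permutation p = 0.002451), and the pools' mean was 6.69 times the tumours' mean. Its promoter, at chr10:40142255-40142504 on the minus strand of GRCm38.p6 (RefSeq), is printed as that of the carrier that was lower. It held none of the 4 motifs, and neither did that of Slc7a8.
Slc16a10: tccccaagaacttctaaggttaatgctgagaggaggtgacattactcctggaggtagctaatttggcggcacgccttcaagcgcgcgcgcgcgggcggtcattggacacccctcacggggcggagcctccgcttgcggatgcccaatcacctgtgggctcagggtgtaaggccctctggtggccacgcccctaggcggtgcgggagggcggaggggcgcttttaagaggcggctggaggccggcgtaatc

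Slc7a5 and Slc7a8 are light chains that pair with the heavy chain Slc3a2 to exchange large neutral amino acids, and both also move thyroid hormone. Slc7a5 was at 4.06, 7.05, 3.59 and 7.003 TPM in the Braf tumours, 6.88, 4.54, 11.4 and 2.08 TPM in the K5-Tert tumours and 2.51 to 11.4 TPM in the Tert-123 tumours, with a median of 6.67 TPM. The pools held 2.24 TPM in the WT, 6.42 TPM with Tert-123C>T and 1.33 TPM with K5-Tert. The pool with Tert-123C>T lay within the range of the tumours, and the WT pool lay above 1 K5-Tert tumour. The difference did not pass (0.78, 95% interval -0.04 to 1.60, limma adjusted p = 0.151, exact permutation p = 0.07108). Without the Tert-123C>T pool it was 1.197 (limma adjusted p = 0.0760).

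Slc7a8 was at 1.045, 1.18, 1.36 and 1.11 TPM in the Braf tumours and at 2.83, 0.529, 4.92 and 0.298 TPM in the K5-Tert tumours. The Tert-123 tumours ranged from 0.529 to 5.85 TPM with a median of 1.86 TPM. The WT pool was listed at 0, the K5-Tert pool held 0.164 TPM and the Tert-123C>T pool 3.87 TPM, so the pools spread wider than the Braf tumours. The difference was 0.46 (95% interval -0.50 to 1.42, limma adjusted p = 0.499). Without the Tert-123C>T pool it was 1.14 and did not pass (limma adjusted p = 0.131), and with library weights it was 0.95 and passed (limma adjusted p = 0.0457).

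Crym, which binds triiodothyronine in the cytosol in the presence of NADPH, was higher in the tumours. The Braf tumours held 1.51, 3.78, 7.56 and 1.17 TPM. The Tert-123 tumours ranged from 0.543 to 3.34 TPM with a median of 2.16 TPM, and the K5-Tert tumours held 0.263, 1.21, 0 and 2.27 TPM. All 3 pools were listed at 0, as was 1 K5-Tert tumour, so 14 of the 15 tumours lay above the pools. Without a filter 31.4% of 22693 genes were at 0 in all 3 pools and above 0 in a tumour. Crym entered the main fit only through its level in the tumours. The Crym difference passed in that fit (fitted difference 1.44, standard error 0.416, limma adjusted p = 0.0138, exact permutation p = 0.009804), though its size depends on the pseudocount. It did not pass with a pseudocount of 5 (0.48, limma adjusted p = 0.0537), without the Tert-123C>T pool (1.37, limma adjusted p = 0.0645) or without the WT pool (1.19, limma adjusted p = 0.106).

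**Figure D2:**
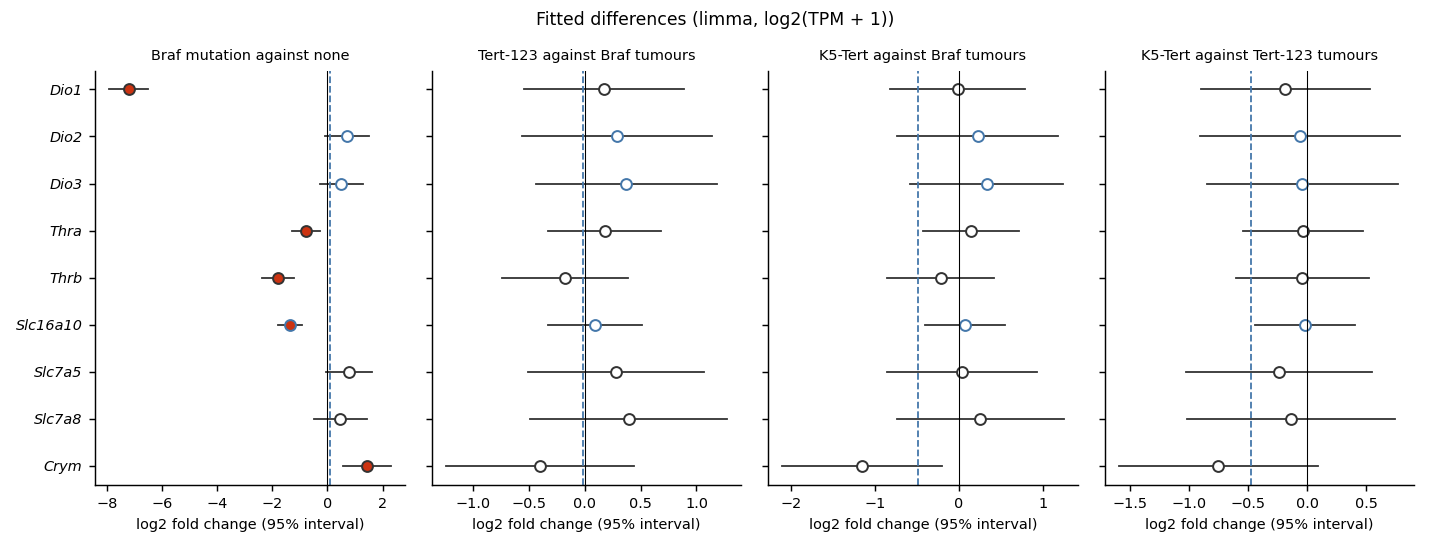
Fitted difference on the log2(TPM + 1) scale with its 95% interval for each gene, in 1 panel per comparison with its own horizontal scale. Red dots passed an adjusted p of 0.05, blue outlines mark the 3 genes taken from the fit without a filter, and the dashed line is the median of all genes tested. Red dots appear only in the comparison of the Braf mutation.

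Taken within each Tert allele, the pools and tumours gave the same order for Dio1, Thrb, Slc16a10 and Thra. The ratio of the pool to the mean of its tumours was 339.5 without a Tert allele, 183 with Tert-123C>T and 402 with K5-Tert for Dio1. For Thrb it was 5.83, 6.06 and 6.09, for Slc16a10 9.35, 5.65 and 6.28, and for Thra 1.47, 1.58 and 2.15. With 1 pool per allele, a difference between the alleles in these ratios could not be tested. Slc7a8 did not keep a single order, since its pool was below the tumours' mean in the WT and with K5-Tert and above it with Tert-123C>T (3.87 against 2.20 TPM).

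Markers of other cells also differed between pools and tumours. Of the thyrocyte markers 7 of 9 were lower in the tumours, among them Duox2, listed at 0 in 1 tumour. Nkx2-1 (0.63, limma adjusted p = 0.208) and Slc26a4 (1.40, limma adjusted p = 0.110) were not lower. Slc26a4 was listed at 0 in 2 pools and 1 tumour. All 4 endothelial markers were lower in the tumours (summed 9.15 to 95.6 TPM against 78.8 to 751 TPM). 3 of 5 macrophage markers (69.5 to 664 TPM against 30.9 to 181 TPM) and 2 of 4 fibroblast markers (59.1 to 1682 TPM against 20.9 to 252 TPM) were higher. The C cell markers Calca (-7.31, limma adjusted p = 2.47e-09) and Chga (-5.31, limma adjusted p = 0.000256) were lower and Calcb was higher, and their sum was 2.72 to 42.5 TPM in the tumours and 239, 386 and 2058 TPM in the K5-Tert, WT and Tert-123C>T pools. Calcb was listed at 0 in all 3 pools. Of the muscle markers, Tnnt3 was higher in the tumours (1.53, limma adjusted p = 0.000474) and none was lower. Of the T cell markers tested, Lck was lower (-1.12, limma adjusted p = 0.0206) and none was higher. The part of these markers in the results for the 9 genes was not tested. The 7 lower thyrocyte markers went in the same direction as Dio1, and the other 2 did not. Profiles over the 18 libraries were compared among 9415 genes of at least 5 TPM on average. The genes most like Dio1 were Lmod2, a muscle actin-filament protein (r = 0.97), Papss2, which makes the sulfate donor (r = 0.97), and Tg, the hormone precursor thyroglobulin (r = 0.97). For Thra they were Nid2, a basement membrane protein (r = 0.85), Pde8a, a cyclic AMP phosphodiesterase (r = 0.82), and Sort1, a sorting receptor (r = 0.82). For Slc7a5 they were the leukocyte genes Hcls1 (r = 0.90), Fermt3 (r = 0.89) and Nckap1l (r = 0.88). These correlations describe libraries that share 1 scaling and fall into tumours and pools.

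Within the tumours, the highest values of several of the genes came in libraries with high fibroblast or macrophage sums. Tert-123 tumour 4 held the highest Dio2 (5.68 TPM), Dio3 (4.37 TPM), Slc7a8 (5.85 TPM) and Dio1 (3.03 TPM) of all tumours, and also the highest fibroblast sum (1682 TPM) and macrophage sum (664 TPM). K5-Tert tumour 3 was next in both sums (1079 and 619 TPM) and in Dio2 (1.77 TPM) and Slc7a8 (4.92 TPM), and had the highest Slc16a10 of the tumours (1.06 TPM). Slc7a5 was highest in K5-Tert tumour 3 and Tert-123 tumours 7 and 6 (11.4, 11.4 and 10.99 TPM), whose macrophage sums were 619, 359.5 and 354 TPM. It was lower, at 9.11 TPM, in Tert-123 tumour 4 with the highest macrophage sum. The fibroblast sum of Tert-123 tumour 7 was low, at 70.8 TPM. Tert-123 tumour 4 also had the highest muscle (20.6 TPM), B cell (9.59 TPM) and fat (3.87 TPM) sums of the tumours. Its thyrocyte sum (294 TPM) was the lowest. The part of other cells in these values was not tested.

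**Figure D3:**
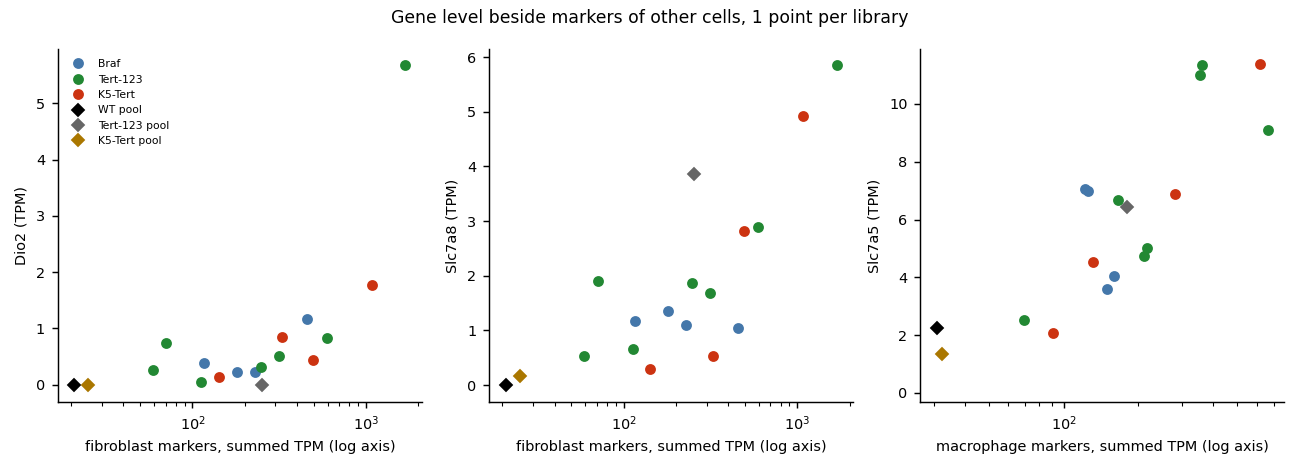
Dio2, Slc7a8 and Slc7a5 in TPM (vertical) against the summed TPM of fibroblast markers (first 2 panels) or macrophage markers (last panel) on a logarithmic horizontal axis. Each point is 1 library, dots are tumours and diamonds are pools. Tert-123 tumour 4 lies at the upper right for Dio2 and Slc7a8, at 5.68 and 5.85 TPM.

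The comparisons among tumours ask what the Tert alleles add to the Braf mutation. For Tert-123 against Braf tumours, 0 of the 9 genes passed, as did 0 of 13532 genes (0.0%, limma), of which 189 had an unadjusted p under 0.05. Without a filter, which takes in all 9, 0.00441% of 22693 genes passed. The fitted differences lay between -0.40 (Crym, 95% interval -1.24 to 0.44) and 0.39 (Slc7a8, 95% interval -0.49 to 1.28). For Dio1 the difference was 0.17 with a 95% interval of -0.54 to 0.89, and for Thra 0.18 with an interval of -0.33 to 0.69. No unadjusted p of the 9 genes was under 0.05, and the smallest exact permutation p was 0.3515 (Slc7a8). These intervals leave room for changes of up to 1.28 on the log2 scale in Slc7a8.

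For K5-Tert against Braf tumours, 0 of the 9 genes passed, where 0.436% of 13532 genes were higher and 16.8% lower (17.3% in all, and 6.26% without a filter). Crym came nearest, with a mean of 0.936 ± 1.03 TPM in the K5-Tert tumours (SD, n = 4) and 3.51 ± 2.94 TPM in the Braf tumours (n = 4). Its difference was -1.15 (95% interval -2.10 to -0.20, limma adjusted p = 0.0810, exact permutation p = 0.1429). All genes tested had a median of -0.49 in this comparison, and with factors of the TMM type, which took that median to -0.01, the Crym difference was -0.76 (limma adjusted p = 0.351). Thra, at 17.2 ± 4.26 TPM against 15.3 ± 3.20 TPM, differed by 0.14 in the main fit and by 0.70 with those factors (limma adjusted p = 0.127). Dio1 was at 0.846 ± 0.574 against 0.865 ± 0.644 TPM, and its difference of -0.01 (95% interval -0.82 to 0.80) changed sign with those factors.

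For K5-Tert against Tert-123 tumours, 0 of the 9 genes passed, where 0.51% of genes were higher and 22.0% lower (22.5% in all, and 9.39% without a filter). Crym again had the lowest value (-0.75, 95% interval -1.60 to 0.09, limma adjusted p = 0.163, exact permutation p = 0.09697). The other 8 lay between -0.24 (Slc7a5) and -0.02 (Slc16a10, without a filter), and all 8 were above 0 with factors of the TMM type. All 3 tumour comparisons share tumour groups with each other. No gene of the 9 passed in them in any alternative that held it, where Dio2, Dio3 and Slc16a10 were fitted only without a filter and after rescaling without Rpph1. The sample numbers of all 4 K5-Tert tumours lie above those of the other tumours, and a separate run, if there was one, cannot be told apart from the allele.

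In order of mean level the tumour groups did not separate for any of the 9 genes beyond their spread. Crym was ordered Braf, Tert-123 and K5-Tert (3.51 ± 2.94, 2.08 ± 0.979 and 0.936 ± 1.03 TPM). This was the only order of the 9 that stayed when each of the 15 tumours was left out in turn, a check chosen after seeing the data. Dio2, Dio3 and Slc7a8 had their highest mean in the Tert-123 tumours, as did Dio1, Thra, Slc16a10 and Slc7a5. For Dio2 and Dio3 this rested on Tert-123 tumour 4. For Slc7a8 the Tert-123 and K5-Tert means were close (2.20 and 2.14 TPM). Their order changed without Tert-123 tumour 4 or 6 or K5-Tert tumour 2 or 4. Without Tert-123 tumour 4 the means of Dio2 were 0.5004, 0.453 and 0.801 TPM in the Braf, Tert-123 and K5-Tert tumours. Those of Dio3 were then 0.230, 0.299 and 0.616 TPM, and those of Slc7a8 1.17, 1.59 and 2.14 TPM. The orders of Dio1, Thra, Thrb, Slc16a10 and Slc7a5 also changed when single libraries were left out, among them Braf tumour 2 for Thrb and Tert-123 tumour 4 for Thra and Slc16a10.

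Among other genes of the pathway, 4 of 9 listed carriers were tested, of which 1 was lower with the Braf mutation and 0 higher. Of all genes 11.2% were lower and 15.1% higher. The carriers had a median difference of 0.19 against 0.09 for all genes. The lower one was Slco2b1, an organic anion carrier (-1.33, limma adjusted p = 0.0347). It was at 16.4 TPM in the Tert-123C>T pool, 3.28 TPM in the WT pool and 1.57 TPM in the K5-Tert pool, inside the tumours' range for the last 2. Without the Tert-123C>T pool or without the WT pool no carrier was lower, and without K5-Tert tumour 2, 1 was higher. Slc3a2, the partner of Slc7a5 and Slc7a8, did not pass (-0.48, limma adjusted p = 0.120).

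Iyd, which recovers iodide from iodotyrosines, was at 20.0 to 102 TPM in the tumours and 481 to 1346 TPM in the pools (-4.21, limma adjusted p = 8.55e-08). It was the only one lower of 2 tested members of a list of 5, and 0 were higher. Of the 7 hormone-responsive genes 3 were lower and 0 higher (median -0.55), where 11.2% of all genes were lower and 15.1% higher. Klf9, a transcription factor gene that the hormone induces, was at 5.70 to 23.5 TPM against 56.4 to 75.3 TPM (-2.26, limma adjusted p = 8.27e-06). Ppargc1a, a metabolic coactivator, was at 0.424 to 3.95 TPM against 8.41 to 14.6 TPM (-2.08, limma adjusted p = 4.71e-05). Thrsp, a lipogenic gene, was at 0 to 9.01 TPM against 10.4 to 56.4 TPM (-3.35, limma adjusted p = 1.64e-05). In each of these 4 genes, named because they passed, every tumour was below every pool, as in 3.72% of 22693 genes without a filter. With factors of the TMM type 5 of the 7 were lower, and 6 with the trend on mean and length removed. In the main fit the other 4 responsive genes lay between -0.55 (Me1) and 0.66 (Hr) and did not pass.

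Of 13 receptor partners and cofactors tested from 14, 2 were higher and 2 lower with the mutation, with a median of -0.27, and these shares are near those of all genes (15.1% higher and 11.2% lower). Rxrb, a receptor partner, was higher (0.81, limma adjusted p = 0.00388), as was the corepressor enzyme gene Hdac3 (0.76, limma adjusted p = 0.0365). The coactivator genes Ncoa3 (-1.23, limma adjusted p = 0.0116) and Ncoa2 (-0.74, limma adjusted p = 0.0292) were lower. Without the K5-Tert pool 2 were higher and 0 lower, and without the Tert-123C>T pool, or without the WT pool, 1 was higher and 1 lower. Without Braf tumour 3, 1 was higher, and without K5-Tert tumour 1, 3 were lower. With factors of the TMM type 2 were higher and 4 lower. Of the 6 selenocysteine genes none passed, with a median of 0.26 and the smallest adjusted p at 0.141 (Eefsec, limma). Without the K5-Tert pool 4 of the 6 were higher, and without K5-Tert tumour 2, or with factors of the TMM type, 1 was. Of 3 genes that add or remove ubiquitin on Dio2, Wsb1, which directs the enzyme to degradation, was lower (-0.97, limma adjusted p = 0.0302), and it did not stay lower without the K5-Tert or the Tert-123C>T pool, where 0 of the 3 were lower. Without the K5-Tert pool 1 of the 3 was higher.

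**Figure D4:**
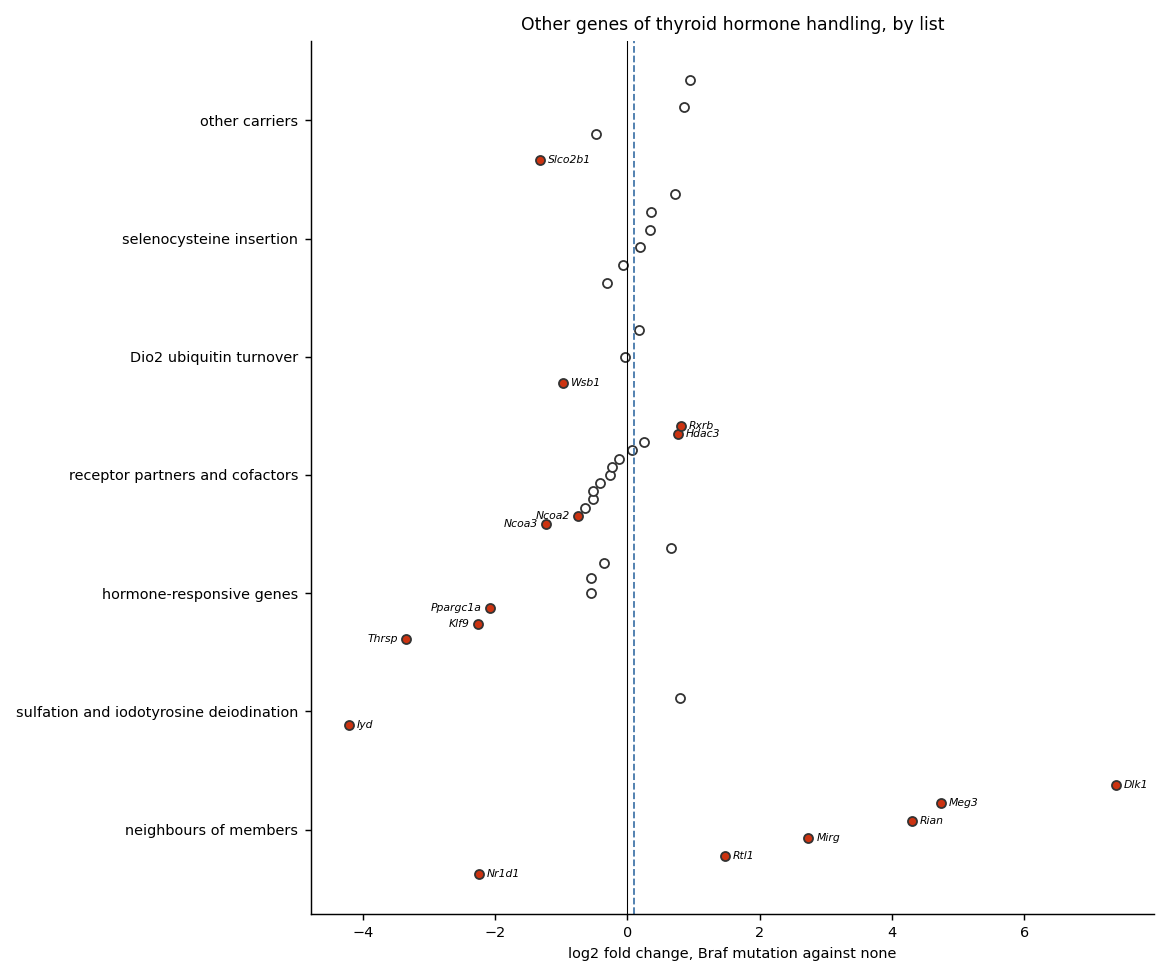
Fitted difference of tumours from pools on the log2(TPM + 1) scale for the tested genes of 7 lists, 1 dot per gene. Red dots with names passed an adjusted p of 0.05, and the dashed line is the median of all genes at 0.09. The named hormone-responsive genes and Iyd lie to the left, and 5 of the 6 neighbours of Dio3 and Thra lie to the right.

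Dio3 ends a cluster of imprinted genes that holds Dlk1, Rtl1 and, read from the other parental copy, the noncoding RNAs Meg3, Rian and Mirg. These neighbours were higher in the tumours than in the pools, while the difference of Dio3 did not pass. Dlk1, a membrane protein gene of progenitor cells, was at 52.3 to 1090.0 TPM in the tumours and 0 to 3.54 TPM in the pools (7.39, standard error 0.688, limma adjusted p = 9.14e-08). Meg3 was at 6.07 to 204 TPM against 0.305 to 2.71 TPM (4.74, limma adjusted p = 4.75e-07) and Rian at 17.4 to 226 TPM against 1.90 to 3.17 TPM (4.31, limma adjusted p = 1.59e-07). No tumour overlapped the pools in these 3 genes, which were named because they passed. All tumours lay above all pools in 3.54% of 22693 genes without a filter. Mirg (2.74, limma adjusted p = 0.000117) and Rtl1 (1.47, limma adjusted p = 0.00550), named after their values were seen, passed as well. Rtl1 has an antisense transcript, and its reads cannot be assigned to a strand here. Its own level in the tumours was 0.111 to 6.81 TPM. Dio3 ranged there from 0 to 4.37 TPM with a median of 0.299 TPM, and 5 of the 15 tumours were listed at 0. The antisense gene Dio3os, at 0 in the pools, did not exceed 3.31 TPM.

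In K5-Tert against Braf tumours, 4 of these neighbours were lower, while Dio3 differed by 0.33 without passing (without a filter, limma adjusted p = 0.628). Meg3 was at 30.5, 17.6, 8.83 and 6.07 TPM in the K5-Tert tumours and 54.9, 130.1, 204 and 189 TPM in the Braf tumours (-3.19, limma adjusted p = 0.00207). Mirg (-2.70, limma adjusted p = 0.00362), Rtl1 (-1.76, limma adjusted p = 0.00972) and Rian (-1.94, limma adjusted p = 0.0101) passed too. 4 of 6 neighbours passed when any 1 library was left out, 3 with factors of the TMM type, 2 with the trend on mean and length removed and 2 without K5-Tert tumours 2 and 4.

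The selenocysteine and cofactor genes also held members lower in K5-Tert than in Braf tumours. Secisbp2, which binds the selenocysteine signal of deiodinase messages, was at 12.7, 3.53, 6.70 and 4.13 TPM in the K5-Tert tumours and 16.2, 20.7, 19.4 and 20.4 TPM in the Braf tumours (-1.51, limma adjusted p = 0.00654). Eefsec, the elongation factor for selenocysteine (-0.99, limma adjusted p = 0.0356), and Pstk, a kinase in its synthesis (-0.91, limma adjusted p = 0.0472), made 3 of 6 lower, and 0 were higher (median -0.68). Of all genes 16.8% were lower in this comparison. 4 of 13 cofactor genes were lower and 0 higher (median -0.72). They were the corepressor genes Ncor1 (-1.31, limma adjusted p = 0.0154) and Gps2 (-0.72, limma adjusted p = 0.0403) and the coactivator genes Crebbp (-1.03, limma adjusted p = 0.0391) and Ep300 (-1.01, limma adjusted p = 0.0477). Wsb1 (-1.16, limma adjusted p = 0.0265) and the Dio2 deubiquitinase gene Usp33 (-0.74, limma adjusted p = 0.0364) made 2 of 3, and Thrsp (-1.42, limma adjusted p = 0.0457) 1 of 7 hormone-responsive genes, which is no larger a share than that of all genes. None of the carriers or of the list with Iyd passed.

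These medians stand beside -0.49 for all genes, and the counts depended on the scaling, on single libraries and on the fit. Xist, a female-specific RNA, was above 10 TPM in 4 of 4 Braf tumours and 1 of 4 K5-Tert tumours, so sex as read from Xist nearly follows the allele here. When the fit took Xist as a covariate, or held only the groups compared, 1 selenocysteine gene and none of the cofactor, ubiquitin and hormone-responsive genes were lower. All genes lower then numbered 298 and 529 in place of 2279, while 4 of the neighbours of Dio3 and Thra were lower in both. With factors of the TMM type 1 selenocysteine gene, 1 cofactor gene and 0 of the ubiquitin genes were lower, and 1 hormone-responsive gene was higher. Without K5-Tert tumour 2, without K5-Tert tumour 4 or without Braf tumour 3, 1 selenocysteine gene and 0 cofactor genes were lower. Without Braf tumours 1, 2 or 4 in turn, 1 cofactor gene was lower, with 2, 1 and 1 selenocysteine genes. Without K5-Tert tumour 1, 10 cofactor genes and 2 hormone-responsive genes were lower, as were 5184 of all 13532 genes. Without any 1 Braf tumour, or without K5-Tert tumour 2 or 4, no hormone-responsive gene passed, and the ubiquitin genes lower were 0, or 1 without Braf tumour 1. Without K5-Tert tumour 3, 1 ubiquitin gene, 2 selenocysteine genes and 3 cofactor genes were lower. Leaving out any 1 Tert-123 tumour left 2 to 4 cofactor genes, 2 or 3 selenocysteine genes and 0 to 2 hormone-responsive genes, and without K5-Tert tumours 2 and 4 together none of either list was lower. The low Malat1 of K5-Tert tumours 2, 3 and 4 moved with Secisbp2 and Ncor1 (Ncor1 at 42.0 TPM in K5-Tert tumour 1 and 9.25 to 22.7 TPM in the other 3), and the thyrocyte factors Nkx2-1 (-1.31, limma adjusted p = 0.0134) and Pax8 (-1.27, limma adjusted p = 0.0366) were also lower in the K5-Tert tumours. The part of either in these counts was not tested.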

How the data were processed

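RNA from 18 libraries of sorted mouse thyroid cells was compared: 4 Braf, 7 Tert-123 and 4 K5-Tert tumours and 3 single pools without the Braf mutation. The deposited table holds values that the authors call normalized counts and that are taken here as TPM (length-scaled shares of a library), judged from the values: each column sums to 1000000, and a short RNA, Rpph1, holds a large share of each. The sources used here do not name the aligner, build or annotation, or whether strand was used. Per the series' design text, 9000 to 20000 sorted cells went into a low-input library with 14 PCR cycles and paired reads of 100 bases. Depth is unknown, so intervals do not rest on read counts. Groups came from the labelled genotypes. Of 23652 rows, 26 with dates in place of symbols (at most 0.0455% of a library) were left out.

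Values were tested as log2(TPM + 1) with limma 3.58.1 (R 4.3.3, with a mean trend) over genes with a mean of at least 1 TPM. The 3 tumour groups shared 1 fit, and another model over the 18 libraries held the Braf mutation with the Tert allele as a covariate. P-values were adjusted (Benjamini-Hochberg) across every gene in a fit, with a threshold of 0.05, and exact two-sided permutation tests used scipy 1.17.1. The scripts were tested on simulated data. Alternatives were pseudocounts of 0.5 and 5, no filter or 10 TPM in 4 libraries, TMM-type factors (trims of 30% and 5%), quantile normalization, rescaling without Rpph1, removal of the trend on mean and length, library weights, Xist above 10 TPM as a covariate, only the groups compared, and leaving out libraries.

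The genes and lists were chosen with earlier results of these data known, and 2 genes of the lists are not reported here. Named in each list were the genes with the smallest p past the threshold, up to 4 per list, in K5-Tert against Braf tumours and for the Braf mutation, and the 3 most like genes for members with a mean of at least 5 TPM. Promoter sequences came from RefSeq.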

Additional observations from a re-analysis of the deposited data

Results flagged for a closer look

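In 27 groups of 4 to 7 libraries tested for a library far from the others (Dixon's test at 95%, which flags about 1 in 20 groups by chance), 5 had one. Dio2 was at 5.68 TPM and Dio3 at 4.37 TPM in Tert-123 tumour 4, above the other 6 Tert-123 tumours. This library also held the highest fibroblast (1682 TPM) and macrophage (664 TPM) marker sums of the tumours. Its muscle, B cell and fat sums were the highest too, and its thyrocyte sum was the lowest. The part of those cells was not tested. Dio2 was at 1.17 TPM in Braf tumour 1 and Thrb at 1.96 TPM in Braf tumour 2, each above the other 3 Braf tumours. Thrb was at 1.53 TPM in K5-Tert tumour 1, above the other 3 K5-Tert tumours.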

How the results depend on the processing

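No paired analysis was possible because the labels carry no replicate numbers shared between groups. Depth is unknown, and 3 single pools are the whole comparison without the Braf mutation, so any 1 of them weighs on each difference.

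With the Braf mutation, Dio1 passed in 29 of 29 alternatives (-7.81 to -5.57), Thrb in 29 of 29 (-2.20 to -0.82), Thra in 28 of 30 (-1.03 to -0.62) and Crym in 26 of 29 (0.48 to 2.28). Of the 9 genes, the number higher was 0 with a pseudocount of 5 or with 10 TPM in 4 libraries, 2 with library weights and 0 to 1 with 1 library left out. The number lower was 1 with 10 TPM in 4 libraries and 2 to 3 with 1 library left out. Of all genes, 1205 were higher and 786 lower with 10 TPM in 4 libraries, 4703 were higher with library weights and 2782 lower with the trend removed. With 1 library left out 1238 to 2883 were higher and 1050 to 1650 lower. The cause was not tested.

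For Tert-123 against Braf tumours 1 gene of all was higher and 1 lower with library weights, 1 was lower without a filter, and 0 to 0 passed with 1 library left out. Thrb ranged from -0.26 to 0.0094 with 1 library left out, changing sign without Braf tumour 2.

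For K5-Tert against Braf tumours the counts of all genes higher and lower were 32 and 1389 without a filter, 510 and 525 with TMM-type factors, 169 and 454 with quantile normalization, 299 and 413 with the trend removed, 17 and 298 with Xist, 37 and 529 with only the groups compared, and 9 and 13 without K5-Tert tumours 2 and 4. Without Rpph1 127 were higher, and with library weights 5514 were lower. With 1 library left out 21 to 103 were higher and 328 to 5184 lower. Uncalled differences changed sign in Dio1 (TMM-type 0.29, quantile 0.52, without Rpph1 0.085, trend removed 0.41, library weights 0.16, Xist 0.48), Thrb (TMM-type 0.036, quantile 0.26, trend removed 0.22), Slc7a5 (library weights -0.30) and Slc7a8 (library weights -0.080). With 1 library left out Dio1 ranged from -0.16 to 0.20, Slc7a5 from -0.28 to 0.39 and Slc7a8 from -0.14 to 0.59.

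For K5-Tert against Tert-123 tumours the counts higher and lower were 593 and 632 with TMM-type factors, 248 and 485 with quantile normalization, 182 and 1731 without Rpph1, 328 and 490 with the trend removed, 26 and 1150 with only the groups compared, and 8 and 17 without K5-Tert tumours 2 and 4. With Xist 1963 were lower. With 1 library left out 26 to 118 were higher and 473 to 5824 lower. Uncalled differences changed sign with TMM-type factors in Dio1 (0.13), Dio2 (0.16), Dio3 (0.20), Thra (0.52), Thrb (0.20), Slc16a10 (0.10), Slc7a5 (0.24) and Slc7a8 (0.12). They did so with quantile normalization in Dio1 (0.32), Thra (0.44), Thrb (0.44), Slc7a5 (0.30) and Slc7a8 (0.30), and without Rpph1 in Dio2 (0.095), Dio3 (0.12), Thra (0.21), Thrb (0.088) and Slc16a10 (0.019). With the trend removed they did so in Dio1 (0.23), Thra (0.38), Thrb (0.39), Slc7a5 (0.18) and Slc7a8 (0.36), with library weights in Dio1 (0.12) and with Xist in Dio1 (0.025) and Thra (0.088). Without K5-Tert tumours 2 and 4 they did so in Thra (0.15), Thrb (0.12), Slc7a5 (0.39) and Slc7a8 (0.74). With 1 library left out Dio1 ranged from -0.36 to 0.0078, Thra from -0.13 to 0.15, Thrb from -0.22 to 0.042, Slc7a5 from -0.56 to 0.11 and Slc7a8 from -0.54 to 0.195.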
